A study of Mus musculus with 16 samples.

Results

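The semaphorins, ephrins and Slits are guidance ligands, and the neuropilins, plexins, Robos and Eph kinases are their receptors. The genes of these families were taken by symbol, as every probe set that the platform annotation assigns to a single gene of the families. The families were picked with earlier results of these data known, so their shares of called genes are descriptive only. In total 59 genes with 136 probe sets were found, among 18193 genes and 45037 non-control probe sets on the array. The 59 genes were 20 semaphorins, 2 neuropilins, 9 plexins, 3 Slits, 4 Robos, 5 ephrin-A, 3 ephrin-B, 9 EphA and 4 EphB genes. A gene is shown by its probe set of highest SD over the 16 arrays, and its other probe sets are given where they differ. That SD includes any difference between the groups, so the rule favours probe sets with wider differences.

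RNA was taken from the ascending aorta and from the aortic valve of untreated mice aged 30 days. The mice were Eln+/+ or Eln+/-, where Eln encodes elastin, the main protein of elastic fibres. Each genotype was sampled in each tissue, which gives 4 groups with 4 arrays each, and no specimens were pooled. A valve specimen held cusp, annulus and root, and the RNA was amplified before labelling. The strain and the way in which the Eln allele was inactivated are not given in the sources used here.

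Guidance molecules are best known for steering growing axons, and in the heart and vessels they also guide endothelial, neural crest and cushion cells. Class 3 semaphorins are secreted and mostly act through a neuropilin with a class A plexin, whereas the other classes are mostly membrane proteins that bind plexins directly. Slits are secreted ligands of Robos. Ephrins are anchored in the membrane, so that an ephrin and an Eph kinase signal where cells touch, and in general ephrin-A ligands bind EphA and ephrin-B ligands bind EphB receptors.

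Each value is a log2 ratio, for most probe sets that of the signal on an array to their median signal over the 16 arrays. Levels can thus be compared between arrays but not between genes. The median ratio was 1 for 39827 of 45101 probe sets and below 1 for 5274, whose divisor is not known. The median ratio of an array was between 0.957 and 1.00. Several arrays stood apart. Cardiac muscle markers averaged -3.68 to -0.97 on the aorta arrays and 0.44 to 2.21 on the valve arrays. Of these, 18 of 18 were called higher in valve, against 5.83% of all genes. Of 11 smooth muscle markers, 7 were called lower in valve, against 3.80% of all genes, and 1 higher, against 5.83%. The 11 markers averaged -1.83 to -0.47 on the valve Eln+/- arrays against -0.63 to 0.27 on the valve Eln+/+ arrays. Among the aorta arrays, Eln+/+ replicate 4 had the highest adipocyte mean (2.99), and Eln+/- replicates 2 and 4 had thymocyte means of 1.56 and 0.86 where all other arrays were at or below -0.02. The sex-linked genes were of the female pattern on all 8 Eln+/- arrays and on 2 of 8 Eln+/+ arrays, so sex moved with genotype in both tissues. Eln itself differed by -1.27 between valve Eln+/- and valve Eln+/+, with an adjusted p of 0.395 in the limma fit of all probe sets. Its values were -1.19 to 0.04 in valve Eln+/+ and -2.62 to -0.81 in valve Eln+/-. In the aorta they were 0.05 to 0.48 in Eln+/+ and -0.64 to 0.13 in Eln+/-, so the genotypes overlapped in both tissues.

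Some members of the families differed between valve and aorta, in both directions. Over both genotypes, 42 of the 136 guidance probe sets were called at an adjusted p under 0.05 (limma, Benjamini-Hochberg over 45037 probe sets), which is 30.9% against 8.04% of all probe sets. Of these, 28 were higher in valve, against 4.40% of all probe sets, and 14 lower, against 3.64%. By the probe set of highest SD, 16 of 59 genes were called, against 9.63% of all genes. They were 10 higher, against 5.83%, and 6 lower, against 3.80%, and the median difference of the 59 genes was 0.06 against -0.03 for all genes. Fewer cells of a type and less RNA per cell cannot be told apart in such bulk specimens. With a further 6 genes that were called only through another probe set, 22 of the 59 genes had a call. The like share over all genes was not taken. No called probe set went against the sign of its gene's main probe set. The other 37 genes had no called probe set in any contrast.

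**Figure D1:**
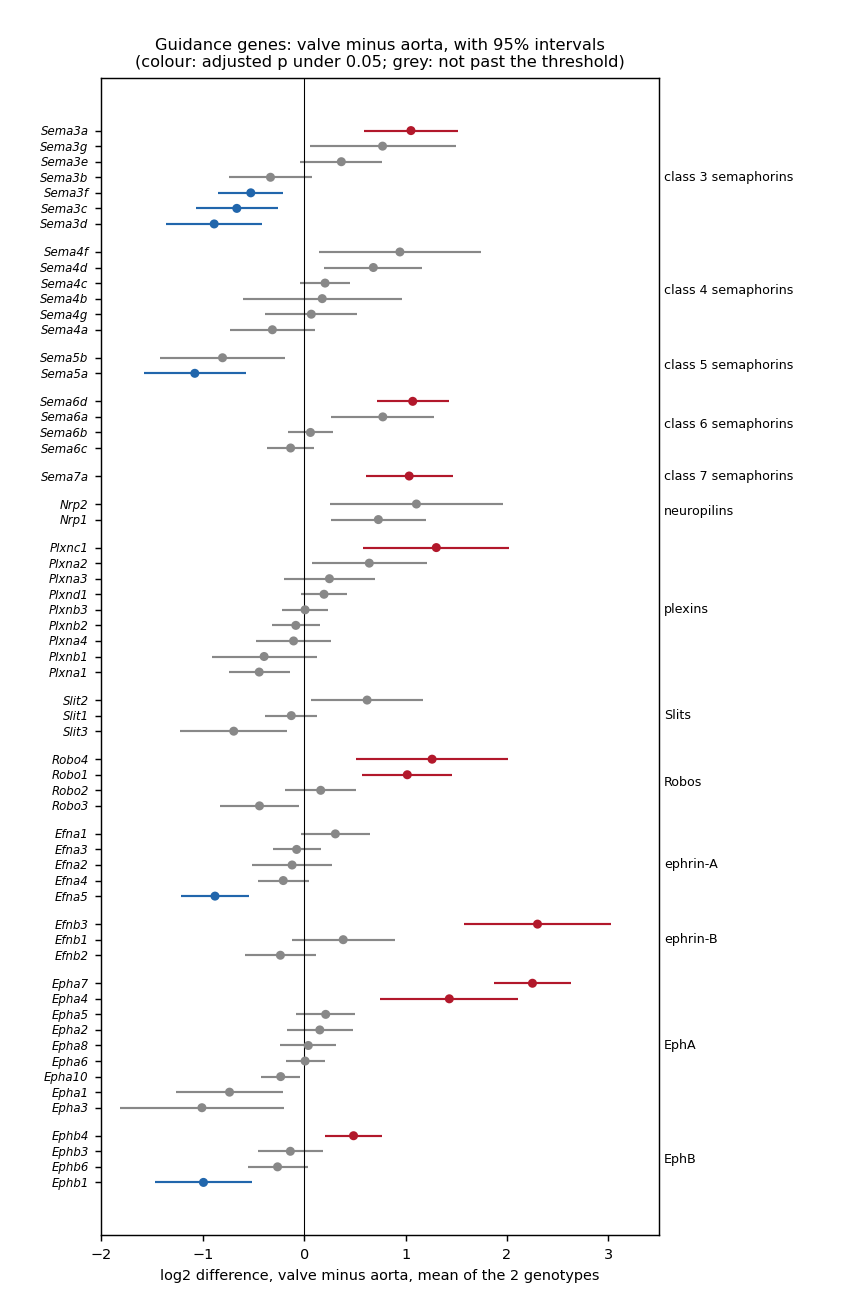
Difference between valve and aorta of the 59 guidance genes, by family, as the mean of both genotypes on the log2 scale (points) with 95% intervals (lines). Of the 16 coloured genes that passed the threshold, Efnb3 (2.30) and Epha7 (2.25) lie farthest to the right and Sema5a (-1.08) farthest to the left. The class 3 semaphorins and EphB receptors hold called genes on both sides of 0.

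The widest differences were those of an Eph receptor and an ephrin, Epha7 and Efnb3. Epha7, a receptor of ephrin-A ligands, had log2 values of -0.93, -2.11, -1.51 and -1.48 in aorta Eln+/+ and of -1.14, -1.20, -0.48 and -0.80 in aorta Eln+/-. In valve they were 1.18, 0.36, 1.08 and 1.22 in Eln+/+ and 1.48, 0.90, 1.12 and 1.01 in Eln+/-. All 8 valve arrays were thus above all 8 aorta arrays, which held for 1.58% of all probe sets in either direction. The difference was 2.25 ± 0.18 (SE), or 4.76-fold (adjusted p 3.91e-06), and all 4 Epha7 probe sets were called, at 0.98 to 2.25. The mean over the 4 probe sets differed by 1.57.

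Efnb3, a transmembrane ephrin-B, was the other gene whose main probe set did not overlap between the tissues. Its values were -1.05, -0.27, -1.20 and -1.28 in aorta Eln+/+, -0.45, -1.49, -0.06 and -0.57 in aorta Eln+/-, 1.29, 0.06, 0.50 and 1.97 in valve Eln+/+, and 1.71, 0.86, 3.26 and 2.39 in valve Eln+/-. The valve Eln+/+ replicate 2 array lay closest to the aorta arrays. The difference was 2.30 ± 0.34, or 4.93-fold (adjusted p 0.000577), and the gene has 1 probe set. The 2 highest aorta arrays for Efnb3, Eln+/- replicate 3 and Eln+/+ replicate 2, were also the 2 aorta arrays with the highest cardiac muscle means, -0.97 and -1.03.

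**Figure D2:**
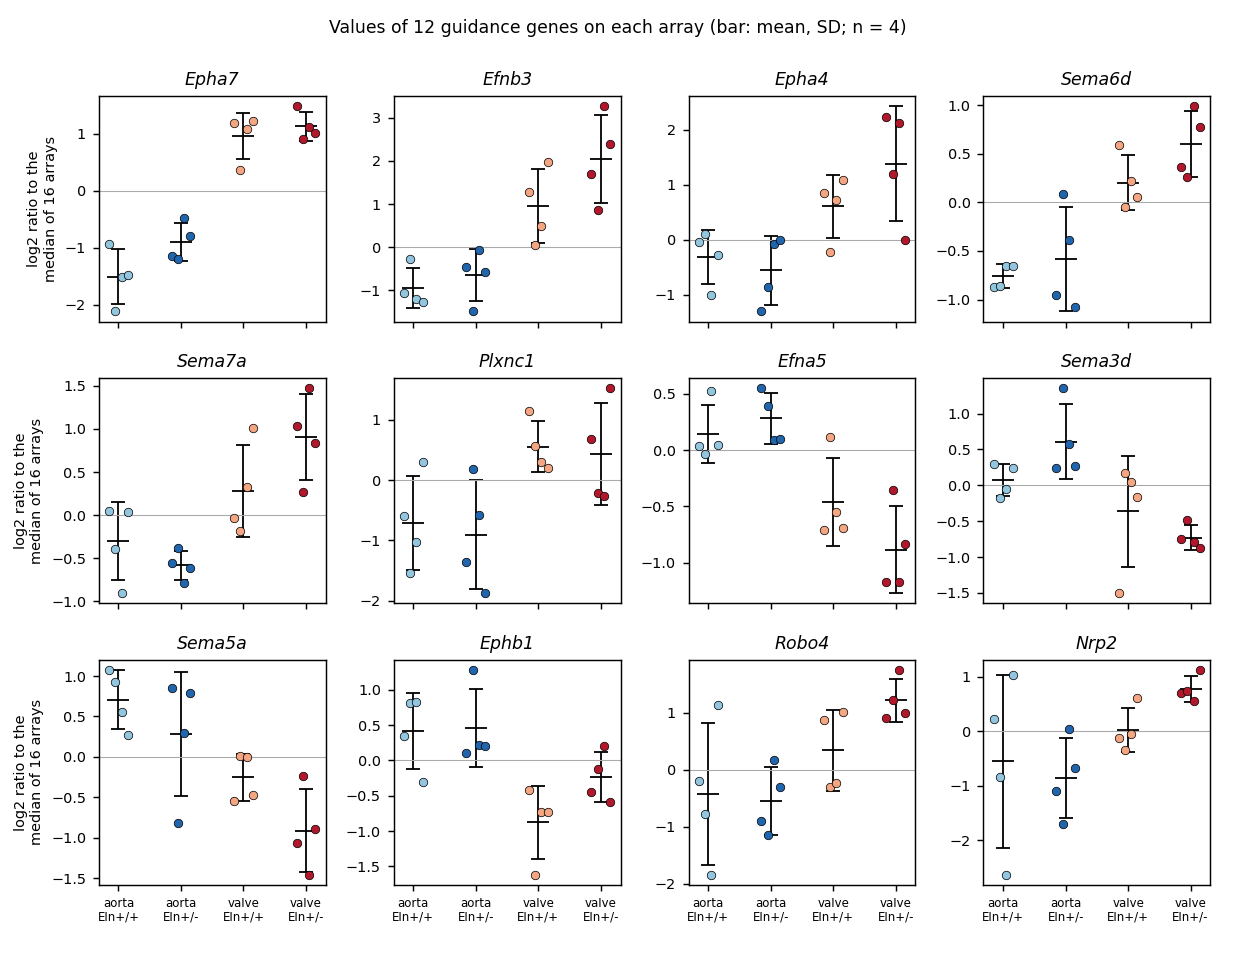
Values of 12 guidance genes on each of the 16 arrays (points, log2 ratio to the median of the 16 arrays), with the mean and SD of each group of 4 (bars). The aorta and valve arrays do not overlap for Epha7 and Efnb3, whereas for Robo4 and Nrp2 the aorta Eln+/+ arrays alone span -1.84 to 1.13 and -2.63 to 1.04.

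Promoter sequence was read for genes on both sides of this contrast and for a ligand and receptor that were both higher in valve, Sema7a and Plxnc1. The RefSeq table used here gives a start for 52 of the 59 genes, Efnb3 not among them, with 68 windows in all, and the 250 bases before each start were taken in mouse build GRCm38.p6. The median window of the guidance genes was 64.0% G or C, against 52.4% over 32851 windows of all genes. The GC box GGGCGG, read on both strands, stood in 72.1% of the guidance windows and in 32.7% of all windows. The CCAAT box CCAAT was found in 27.9% against 33.8%, the TATA box TATAAA in 2.94% against 12.4% and the E-box CANNTG in 50.0% against 66.2%, each on both strands. In 1 guidance window a GC box and a CCAAT box overlap. The 4 windows shown are those of Epha7 at chr4:28812881-28813130 on the plus strand, Ephb1 at chr9:102354694-102354943 on the minus strand, Sema7a at chr9:57939862-57940111 on the plus strand and Plxnc1 at chr10:94944846-94945095 on the minus strand. They are written 5′ to 3′ up to the base before the start, and capitals mark a GC box or a CCAAT box on either strand.
Epha7: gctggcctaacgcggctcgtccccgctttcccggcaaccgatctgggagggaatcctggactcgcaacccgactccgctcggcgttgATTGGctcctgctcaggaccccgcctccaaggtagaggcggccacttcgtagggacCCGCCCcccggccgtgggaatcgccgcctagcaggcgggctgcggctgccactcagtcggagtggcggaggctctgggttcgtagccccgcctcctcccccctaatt
Ephb1: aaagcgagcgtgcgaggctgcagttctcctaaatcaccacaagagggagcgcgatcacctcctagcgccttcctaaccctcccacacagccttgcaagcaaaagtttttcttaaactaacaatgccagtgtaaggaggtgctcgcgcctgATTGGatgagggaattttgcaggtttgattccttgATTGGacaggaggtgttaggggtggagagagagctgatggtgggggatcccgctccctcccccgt
Sema7a: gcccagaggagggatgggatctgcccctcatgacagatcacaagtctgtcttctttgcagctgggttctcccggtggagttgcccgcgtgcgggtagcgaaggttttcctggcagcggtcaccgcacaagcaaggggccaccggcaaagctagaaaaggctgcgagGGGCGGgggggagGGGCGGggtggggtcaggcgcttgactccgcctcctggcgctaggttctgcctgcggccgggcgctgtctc
Plxnc1: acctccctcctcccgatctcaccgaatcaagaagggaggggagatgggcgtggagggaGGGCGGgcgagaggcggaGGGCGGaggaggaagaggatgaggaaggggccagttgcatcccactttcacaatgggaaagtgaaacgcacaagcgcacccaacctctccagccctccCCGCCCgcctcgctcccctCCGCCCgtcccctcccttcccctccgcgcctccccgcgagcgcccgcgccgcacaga
Plxnc1 holds 4 GC boxes and Sema7a 2, with no CCAAT box in either. The Epha7 window shown holds 1 GC box and 1 CCAAT box, and that of its second start, at chr4:28812895-28813144, holds 1 and 2. Ephb1, the member of the 4 that was lower in valve, holds 2 CCAAT boxes and no GC box, and is 54.0% G or C against 66.4% to 69.2% in the other windows. The 4 genes were picked from the called genes, and windows of the other genes lower in valve are not shown. A link between these boxes and the direction in valve was not tested.

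Among the secreted class 3 semaphorins, 1 of 7 was called higher and 3 lower in valve. Of all genes, 5.83% were called higher and 3.80% lower. Sema3a, which repels axons through Nrp1 and class A plexins, was at -0.16, -0.51, -0.43 and 0.35 in aorta Eln+/+ and at -0.83, -0.83, -0.83 and -0.69 in aorta Eln+/-. In valve it was at 0.94, 0.24, 0.28 and 1.93 in Eln+/+ and at 0.45, -0.18, 0.68 and 0.15 in Eln+/-. Aorta Eln+/+ replicates 1 and 4 reached the lower valve values, and the other aorta arrays were below all valve arrays. The difference was 1.05 ± 0.22, or 2.08-fold (adjusted p 0.00712), while the other 2 Sema3a probe sets were not called.

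Sema3c, Sema3d and Sema3f went the other way. Sema3d, known for patterning the pulmonary veins, ran from -0.18 to 1.36 with a median of 0.25 over the 8 aorta arrays and from -1.50 to 0.18 with a median of -0.62 over the 8 valve arrays. The difference was -0.89 ± 0.22 (adjusted p 0.0216), and both probe sets were called. Sema3c, which is required for septation of the outflow tract, had a median of 0.21 in aorta and of -0.44 in valve and a difference of -0.66 ± 0.19 (adjusted p 0.0435), also with both probe sets called. Sema3f, a ligand of Nrp2, differed by -0.53 ± 0.15 (adjusted p 0.0418), with 1 of 3 probe sets called. The calls of Sema3c and Sema3f lay close to the threshold and were lost without 11 and 12, respectively, of the 16 arrays left out in turn. Sema3b (-0.33), Sema3e (0.37) and Sema3g (0.77) were not called. Of the 4 Sema3e probe sets, 3 have a median ratio below 1, which may mark a signal at or under a floor, though no label says so.

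The class 4 semaphorins, membrane proteins that mostly bind class B plexins, had no call by their main probe sets. Sema4f (0.94 ± 0.38, adjusted p 0.157) and Sema4d (0.68 ± 0.23, adjusted p 0.0844) had the highest differences, and Sema4d, the ligand of Plxnb1, was called higher through another probe set at 0.32 (adjusted p 0.0398). In class 5, whose members carry thrombospondin repeats, both genes were lower in valve on average. Sema5a was at 1.08, 0.93, 0.55 and 0.28 in aorta Eln+/+, 0.85, -0.81, 0.30 and 0.79 in aorta Eln+/-, -0.55, 0.00, 0.00 and -0.47 in valve Eln+/+, and -1.07, -0.23, -1.46 and -0.89 in valve Eln+/-. The 1 aorta array among the valve values was Eln+/- replicate 2, an array that stood apart in several markers. It had the highest thymocyte, erythroid (2.25), macrophage (1.07) and endothelial (0.51) means of all arrays. Its smooth muscle mean (-0.84) was the lowest of the aorta arrays. The difference was -1.08 ± 0.24 (adjusted p 0.00974), and 3 of 4 Sema5a probe sets were called. Sema5b differed by -0.81 ± 0.29 (adjusted p 0.109).

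Sema6d and Sema7a, both membrane-bound, were higher in valve. Sema6d, a ligand of Plxna1 with a role in cardiac morphogenesis, was at -0.87, -0.86, -0.66 and -0.65 in aorta Eln+/+ and at -0.96, 0.09, -0.39 and -1.08 in aorta Eln+/-. In valve it was at 0.59, -0.05, 0.22 and 0.05 in Eln+/+ and at 0.36, 0.26, 0.99 and 0.77 in Eln+/-. The tissues overlapped only through aorta Eln+/- replicate 2. The difference was 1.07 ± 0.17 (adjusted p 0.000913), and all 4 probe sets were called, at 0.60 to 1.07. Sema6a was at 0.78 ± 0.24 (adjusted p 0.0608), and Sema6b (0.06) and Sema6c (-0.13) were not called.

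Sema7a is anchored in the membrane by a lipid and binds Plxnc1 and integrins, so the pair can be read side by side. Sema7a was at 0.05, -0.39, -0.91 and 0.04 in aorta Eln+/+, -0.56, -0.38, -0.79 and -0.62 in aorta Eln+/-, -0.04, -0.19, 0.33 and 1.01 in valve Eln+/+, and 1.03, 0.27, 1.47 and 0.84 in valve Eln+/-. Plxnc1 was at -0.59, -1.54, -1.03 and 0.31 in aorta Eln+/+, -1.36, 0.18, -0.57 and -1.87 in aorta Eln+/-, 1.14, 0.56, 0.31 and 0.20 in valve Eln+/+, and 0.68, -0.21, -0.26 and 1.52 in valve Eln+/-. Both were higher in valve with overlapping arrays. Sema7a differed by 1.04 ± 0.20 (adjusted p 0.00458, both probe sets called) and Plxnc1 by 1.30 ± 0.34 (adjusted p 0.0262, 4 of 6 probe sets called, at 0.07 to 1.30 over the 6). The main Plxnc1 probe set lost its call without any of 6 arrays, at adjusted p values up to 0.0590, while a second Plxnc1 probe set at 1.29 had an adjusted p of 0.00544.

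The neuropilins, coreceptors of class 3 semaphorins and of VEGF, were higher in valve without a call by their main probe sets. Nrp1 differed by 0.73 ± 0.22 (adjusted p 0.0556) and Nrp2 by 1.11 ± 0.40 (adjusted p 0.114). Nrp2 was at 0.22, -0.84, -2.63 and 1.04 in aorta Eln+/+ and at -1.10, -1.70, 0.05 and -0.68 in aorta Eln+/-. It was at -0.12, -0.35, -0.05 and 0.61 in valve Eln+/+ and at 0.70, 0.74, 0.56 and 1.12 in valve Eln+/-. The highest aorta array, Eln+/+ replicate 4, is the array with the highest adipocyte mean. Through 2 other probe sets Nrp2 was called, at 1.26 (adjusted p 0.0477) and 1.17 (adjusted p 0.0267).

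Of the 9 plexins, Plxnc1 was the only gene called by its main probe set. Plxna2, a receptor for class 3 and class 6 semaphorins, was called through another probe set at 0.66 (adjusted p 0.0151), beside 0.64 at an adjusted p of 0.177 for the main probe set. Plxna1 was at -0.44 ± 0.14 (adjusted p 0.0710). Plxnd1, the endothelial receptor of Sema3e, was at 0.20 with a 95% interval that holds 0, and Plxnb2 (-0.08), Plxnb3 (0.01) and Plxna4 (-0.10) lay near 0.

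**Figure D3:**
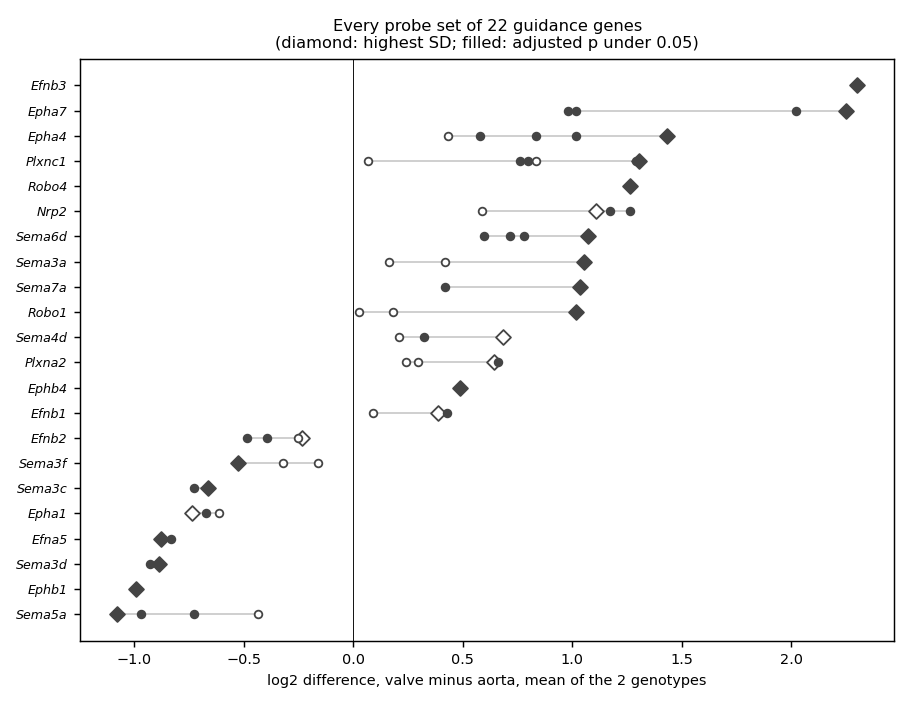
Difference between valve and aorta (log2, mean of both genotypes) for every probe set of the 22 guidance genes with a call. Diamonds are the probe sets of highest SD and filled symbols passed the threshold. Probe sets of a gene share its sign, and they spread widest for Epha7 (0.98 to 2.25) and Plxnc1 (0.07 to 1.30).

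The Slit ligands were not called, whereas 2 of 4 Robo receptors were called higher in valve, against 5.83% of all genes. Slit2 was at 0.62 ± 0.26 (adjusted p 0.179), with 1 of 3 probe sets of that sign, and Slit3 at -0.69 ± 0.25 (adjusted p 0.110). Robo1, the broadly expressed Slit receptor, was at -0.51, -0.54, -0.40 and -0.71 in aorta Eln+/+, -0.50, 0.45, -0.28 and -0.51 in aorta Eln+/-, 1.13, 0.22, -0.18 and 1.03 in valve Eln+/+, and 1.26, 0.84, 0.68 and 0.16 in valve Eln+/-. Apart from aorta Eln+/- replicate 2, every aorta array was below every valve array. The difference was 1.02 ± 0.21 (adjusted p 0.00652), although the other 2 Robo1 probe sets were not called and the mean over the 3 probe sets was 0.41 (adjusted p 0.0801).

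Robo4, the Robo of endothelial cells, ran from -1.84 to 1.13 with a median of -0.54 over the aorta arrays and from -0.30 to 1.75 with a median of 0.95 over the valve arrays. The difference was 1.26 ± 0.35 (adjusted p 0.0380). The call was lost without 12 of the 16 arrays left out in turn. Of 15 endothelial markers, 12 were higher in valve. Of the 15, 4 were called higher, against 5.83% of all genes, and 1 lower, against 3.80%. The endothelial marker mean was -0.78 to 0.51 in aorta and -0.13 to 0.46 in valve. With that mean as a covariate, the Robo4 difference was 0.92 (adjusted p 0.331). Robo3 (-0.44 ± 0.18) and Robo2 (0.16 ± 0.16) were not called.

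Among the ephrin-A ligands, which are lipid-anchored, Efna5 alone was called and was lower in valve. Its values were 0.04, -0.04, 0.52 and 0.04 in aorta Eln+/+, 0.55, 0.39, 0.08 and 0.10 in aorta Eln+/-, -0.70, 0.12, -0.55 and -0.69 in valve Eln+/+, and -1.17, -0.35, -1.17 and -0.84 in valve Eln+/-. Only valve Eln+/+ replicate 2 reached the aorta values. The difference was -0.88 ± 0.16 (adjusted p 0.00232), and in the second Efna5 probe set, at -0.83, all valve arrays were below all aorta arrays. Efna5 was thus lower in the tissue where Epha7, a receptor it can bind, was higher, while Epha3, an EphA receptor needed in the atrioventricular cushions, was at -1.01 ± 0.38 (adjusted p 0.129). Efna1 to Efna4 were at -0.21 to 0.31 and not called.

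Of the ephrin-B ligands besides Efnb3, Efnb1 and Efnb2 were called in opposite directions through probe sets other than the main one. Efnb1 was at 0.43 (adjusted p 0.0470). Efnb2, the ephrin that marks arterial endothelium and smooth muscle, was at -0.49 (adjusted p 0.0173) and -0.40 (adjusted p 0.0360), beside -0.23 ± 0.17 in its main probe set. Its venous receptor Ephb4 was called higher in valve, at 0.49 ± 0.13 (adjusted p 0.0304). The 8 aorta arrays had Ephb4 values of -0.71 to 0.22 with a median of -0.18, and the 8 valve arrays -0.10 to 0.59 with a median of 0.34. Without 9 of the 16 arrays in turn the Ephb4 call was lost.

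Epha4, which binds ephrins of both classes and thus also Efnb3, was higher in valve. It was at -0.04, 0.10, -1.005 and -0.27 in aorta Eln+/+, -1.30, -0.86, -0.08 and 0.0047 in aorta Eln+/-, 0.85, -0.22, 0.72 and 1.09 in valve Eln+/+, and 2.24, 1.198, 2.12 and -0.0047 in valve Eln+/-. In each genotype 1 valve array, Eln+/+ replicate 2 or Eln+/- replicate 4, stayed among the aorta arrays. The difference was 1.43 ± 0.32 (adjusted p 0.0109), with 4 of 5 probe sets called, and 0.86 for the mean over the 5. Ephb1, a receptor of ephrin-B ligands, was lower in valve at -0.99 ± 0.23 (adjusted p 0.0126). Its aorta arrays ran from -0.31 to 1.28 with a median of 0.28 and its valve arrays from -1.62 to 0.21 with a median of -0.52. Epha1 was called lower through another probe set at -0.67 (adjusted p 0.00617), and Epha2, Epha5, Epha6, Epha8, Epha10, Ephb3 and Ephb6 had differences of -0.26 to 0.21 and no call.

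The contrast was also taken within each genotype. The differences of these contrasts share no arrays, but both tests use a spread estimated from all 16 arrays. In Eln+/+, 3 of 136 guidance probe sets were called, all higher in valve, against 0.946% of all probe sets, or 0.848% in that direction. They were 2 of Epha7 (2.47 ± 0.25, adjusted p 0.000286, and 2.14, adjusted p 0.00469) and 1 of Plxnc1 (1.00 ± 0.19, adjusted p 0.0177). By main probe set Epha7 was the 1 gene called, against 1.32% of all genes. In Eln+/-, 28 were called, against 5.81%, with 16 higher (3.27% of all) and 12 lower (2.54% of all). By main probe set 9 of 59 genes were called, against 7.06% of all genes. They were Efnb3 (2.70, adjusted p 0.00379), Epha7 (2.03), Epha4 (1.95), Sema7a (1.49) and Sema6d (1.18) among the higher, and Sema3d (-1.34), Sema5a (-1.19), Efna5 (-1.16) and Sema3c (-1.05) among the lower. The count in Eln+/- was 18 without aorta Eln+/- replicate 3 (1841 of all probe sets). It was 14 without valve Eln+/- replicate 1 (1640 of all) and 16 without valve Eln+/- replicate 3 (1366 of all). Without valve Eln+/- replicate 1 or 3 the calls of Epha4, Sema3c and Sema3d in Eln+/- were lost. Epha4 also lost its call without aorta Eln+/- replicate 1, Sema3c without aorta Eln+/- replicate 2 or 3 or valve Eln+/- replicate 2, and Sema5a without any of 13 of the 16 arrays.

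The larger count in Eln+/- is not by itself a difference between the genotypes. The sign of the tissue difference was the same in both genotypes for 46 of 59 genes (78%), against 59.9% of all genes, and the test of the difference between the 2 contrasts, the interaction, called 0 of 136 probe sets and 0% of all probe sets in limma. At an unadjusted p under 0.05 the interaction held 14 of the 136, against 7.72% of all. Efnb2 had the lowest p among main probe sets. In Efnb2 the valve minus aorta difference was 0.26 in Eln+/+ and -0.73 in Eln+/-, an interaction of -0.995 ± 0.331 (adjusted p 0.619). The other 3 Efnb2 probe sets were negative in Eln+/+ too, at -0.23 to -0.059, with interactions of -0.51 to -0.39, and the mean over the 4 gave an interaction of -0.60. For Sema7a these were 0.58 and 1.49 (0.91 ± 0.41, adjusted p 0.638), and for Ephb6, an Eph receptor without kinase activity, -0.58 and 0.05 (0.63 ± 0.28, adjusted p 0.636).

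The valve specimens carried more heart muscle signal than the aorta specimens, and the tissue contrast was refitted with marker means as covariates. The covariates for cardiac muscle, smooth muscle and adipocytes were chosen after the data were seen. With the cardiac muscle mean, which has no overlap between the tissues, limma called 0 of 45037 probe sets, and 8 guidance probe sets had an unadjusted p under 0.05, against 1777 of all. The fitted differences lay near those without the covariate for Epha7 (2.22), Sema7a (0.87), Sema3a (0.87), Ephb4 (0.51) and Sema3c (-0.73), and farther from 0 for Plxnc1 (1.73) and Ephb1 (-1.70). Those of Efnb3 (0.38 ± 0.85), Epha4 (0.02 ± 0.86), Sema3f (-0.08 ± 0.43) and Efna5 (-0.25 ± 0.43) lay closer to 0, with SEs wider than those without the covariate. Robo4 (0.74), Sema5a (-0.67), Sema3d (-0.64), Sema6d (0.64) and Robo1 (0.58) lay between these sets. The SEs of the 16 genes in this fit were 0.39 to 1.04, so these sets rest on point estimates alone. Tissue and heart muscle signal cannot be told apart in this fit. With the smooth muscle mean, 9 guidance probe sets were called, against 678 of all 45037. Among the 9 were those of Epha7 (2.20, adjusted p 0.000465), Ephb1 (-1.44, adjusted p 0.00875) and Efnb3 (1.91, adjusted p 0.0433). With the endothelial mean, 14 guidance probe sets were called, against 1333 of all, and by main probe set Efnb3, Epha7, Ephb1, Sema6d and Sema3c kept their calls.

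**Figure D4:**
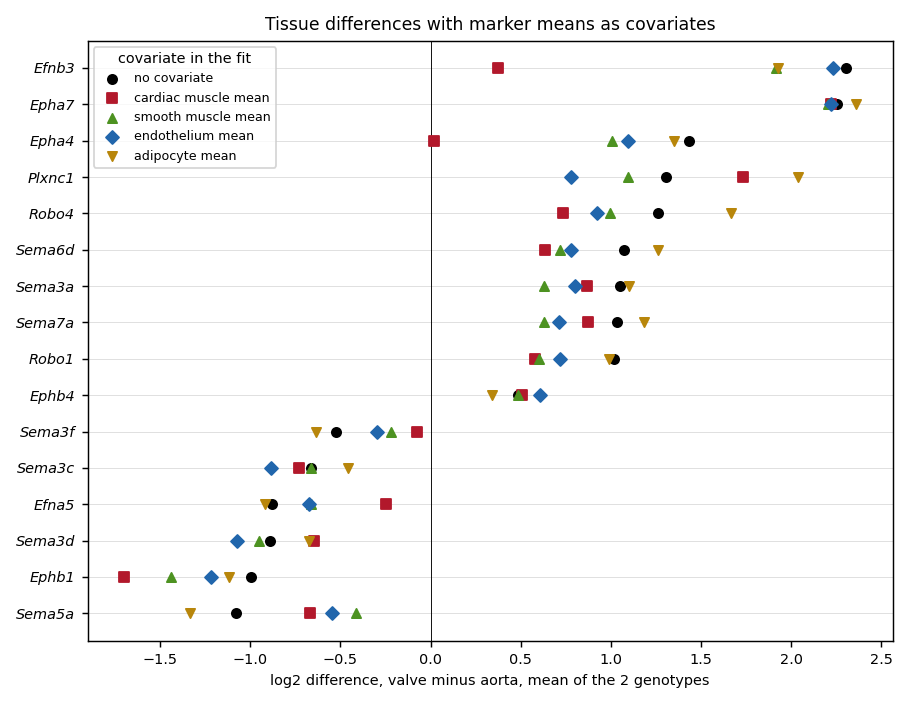
Fitted difference between valve and aorta (log2, mean of both genotypes) of the 16 called genes, without a covariate (black circles) and with the mean of cardiac muscle, smooth muscle, endothelial or adipocyte markers as a covariate. Epha7 stays between 2.20 and 2.36 in all fits, with an SE of 0.53 with the cardiac muscle mean. With that mean, Efnb3 moves from 2.30 to 0.38 ± 0.85 (SE) and Epha4 from 1.43 to 0.02 ± 0.86. The cardiac muscle mean does not overlap between the tissues, so that fit cannot tell tissue and heart muscle signal apart, and no gene is called in it.

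No guidance gene was called between the genotypes. In the aorta, limma called 0 of 136 guidance probe sets and 0% of all, and 6 had an unadjusted p under 0.05, against 5.51% of all. Ephb6 had the lowest p, with 0.51, 0.32, 0.84 and 0.36 in Eln+/+ and 0.22, -0.19, 0.11 and -0.37 in Eln+/-. The Eln+/- arrays were all below the Eln+/+ arrays, which was seen in either direction for 4 of the 136 guidance probe sets and for 2.84% of all. The Ephb6 difference was -0.56 ± 0.20 (adjusted p 0.885). Sema3a did not overlap either, at -0.61 ± 0.31, with the 4 Eln+/- arrays between -0.83 and -0.69. The other 2 Sema3a probe sets had the opposite sign, at 0.43 ± 0.26 and 0.066 ± 0.148, and the mean over the 3 probe sets was -0.036. Efnb2 (0.65 ± 0.23), Epha7 (0.60 ± 0.25) and Sema4a (-0.66 ± 0.28), a semaphorin of immune cells, overlapped between the genotypes and also had adjusted p values of 0.885. The other 3 Epha7 probe sets were at -0.37, 0.034 and 0.14, and the mean over the 4 was 0.10. Without the 2 aorta arrays with thymocyte signal, Ephb6 was at -0.34 and Efnb2 at 0.33.

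In the valve, 0 of 136 guidance probe sets and 0% of all were called, and 17 had an unadjusted p under 0.05, against 8.60% of all. Epha1 had the lowest p among main probe sets, at -0.15, 0.90, -0.45 and 0.43 in Eln+/+ and -1.09, 0.02, -1.41 and -1.26 in Eln+/-. Only Eln+/- replicate 2 reached the Eln+/+ values. The difference was -1.12 ± 0.35 (adjusted p 0.423). Sema3c was at 0.01, -0.01, 0.22 and -0.44 in Eln+/+ and at -0.58, -0.78, -1.47 and -0.45 in Eln+/-, with no overlap and a difference of -0.76 ± 0.27 (adjusted p 0.447). Groups without overlap were seen for 9 of the 136 guidance probe sets and for 5.04% of all. Among probe sets other than the main one, those of lowest p belonged to Sema5a (-1.20 ± 0.29) and Epha4 (0.66 ± 0.16), both without overlap and with an adjusted p of 0.368.

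Efnb3 (1.10 ± 0.48, adjusted p 0.543), Sema7a (0.62 ± 0.29, adjusted p 0.570) and Robo4 (0.88 ± 0.50, adjusted p 0.650) were higher on average in valve Eln+/- than in valve Eln+/+, and Sema5a was lower in its main probe set (-0.66 ± 0.33, adjusted p 0.604). The cardiac muscle markers, which have the same direction in the tissue contrast as Efnb3 and Sema7a, showed positive differences in valve Eln+/- for 18 of 18 genes, at a median of 0.81 and with 0 called. With their mean as a covariate over the 8 valve arrays, the differences were -0.50 ± 0.54 for Efnb3, -0.34 ± 0.28 for Sema7a and 0.03 ± 0.30 for Sema5a. That of Sema3c was -0.19 ± 0.30 in place of -0.76, and that of Epha1 -0.61 ± 0.56 in place of -1.12. The cardiac muscle mean was 0.44 to 1.42 in valve Eln+/+ and 1.40 to 2.21 in valve Eln+/-. This fit can thus hardly tell genotype and heart muscle signal apart, and a cause was not tested. In the aorta, the same covariate left the difference of Ephb6 at -0.56 and that of Efnb2 at 0.64. With the level of the sex-linked genes as a covariate over the 16 arrays, the valve differences were 1.70 for Efnb3, -1.64 for Epha1, 0.70 for Sema7a, -0.70 for Sema3c and 1.38 for Ephb1, which was at 0.64 without it. In that fit the aorta differences were -0.46 for Ephb6, 0.51 for Efnb2 and 0.89 for Epha7. None of these genes was called with either covariate, and the part of sex in the genotype differences was not tested beyond this.

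**Figure D5:**
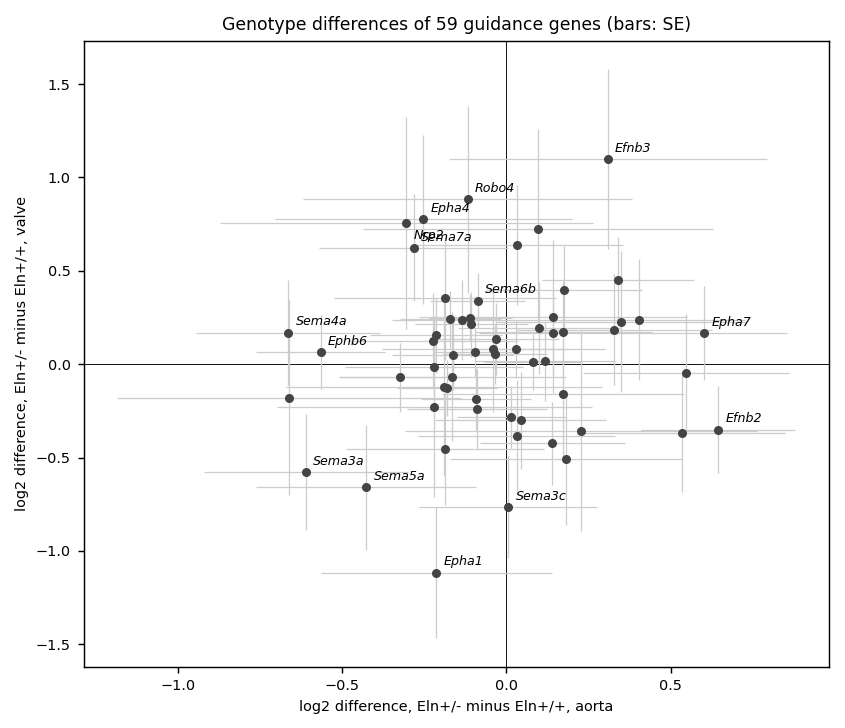
Difference between Eln+/- and Eln+/+ of the 59 guidance genes in the aorta (horizontal) and in the valve (vertical), on the log2 scale, with SE bars. None passed the threshold in either tissue, and the points farthest from 0 are Epha1 (-1.12) and Efnb3 (1.10) in the valve.

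The genotype differences of the tissues had the same sign for 29 of 59 genes (49.2%), against 47.4% of all genes.

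Genes that work with the guidance families were counted from lists written for this purpose, as members called by main probe set over both genotypes. These lists too were written with earlier results of these data known, so the counts are descriptive only. Among the netrins, repulsive guidance molecules and their receptors, 2 of 19 were higher and 2 lower in valve, where 5.83% of all genes were called higher and 3.80% lower. Unc5b, an endothelial netrin receptor, was at 1.54 ± 0.11 (adjusted p 2.57e-06), and Ntn4 at 1.02. Unc5c was at -1.13 and Ntn1, the founding netrin, at -0.60. The median of that list was -0.04.

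Of the VEGF ligands and receptors, some of which share the neuropilins as coreceptors, 5 of 8 were called higher, against 5.83% of all genes, and none lower, and the list median was 0.75. These were the receptors Flt4 (1.74), Kdr (1.38) and Flt1 (1.11) and the ligands Vegfb (0.84) and Pgf (0.66). The 15 endothelial markers had a median of 0.33 in the same contrast, and 3 of 5 lymphatic endothelial markers were called higher, against the same 5.83% of all genes.

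Of 19 semaphorin and plexin effectors, 3 were higher, against 5.83% of all genes, and 2 lower, against 3.80%. Dpysl4 (1.71), Dpysl2 (0.51) and Farp1 (0.66) were higher, of which the first and second are collapsin response mediators. The flavoprotein oxidases Mical2 (-1.08) and Mical1 (-0.89), which act on actin downstream of plexins, were lower. Of 10 measured Slit and Robo effectors, Gpc1, a heparan sulfate proteoglycan that binds Slits, was higher at 1.80 ± 0.28 (adjusted p 0.000754) and Cap1 lower at -0.63. Of 18 Eph and ephrin effectors, the phosphatase gene Inppl1 was higher at 0.44 (adjusted p 0.0133), and 5.56% of that list was called, which is below the 9.63% of all genes. In the genotype contrasts and in the interaction 0 members of these 5 lists were called.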

How the data were processed

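Expression was measured on 16 Affymetrix mouse genome arrays, 4 for each tissue and genotype, from amplified RNA. The submitters' processing notes name RMA, with no version. For most probe sets the deposited values are a linear ratio of the signal on an array to its median over the 16 arrays. This division was read from the values and is described in no label. It does not hold for the 5274 probe sets with a median ratio below 1. Such ratios keep no signal level, and the number of arrays limits the precision. The deposited ratios were put on the log2 scale, and 64 control probe sets were left out. A limma 3.58.1 model (R 4.3.3) of 4 group means was fitted to all 45037 other probe sets with 12 residual degrees of freedom, two-sided tests, Benjamini-Hochberg adjustment and a threshold of 0.05. The fit was tested on simulated data. The platform annotation assigns 34945 probe sets to 1 gene, 932 to several and 9160 to none, and only the first were named. All 136 guidance probe sets matched RefSeq symbols by Entrez identifier.

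Named are the genes with a called probe set, the genes of lowest p in each family, and the genes of lowest p in each list, of which the text gives a part. The members and lists were chosen with earlier results of these data known. Same-numbered arrays of the aorta and the valve correlated at -0.040 to 0.052 after the group means were removed. The labels do not say that a number marks a mouse, so numbers were not used as pairs. In Eln+/+, aorta replicate 2 and valve replicate 4 were of the male pattern, and valve replicate 2 and aorta replicate 4 of the female pattern. These numbers therefore do not mark 1 mouse across the tissues. Nothing says whether the specimens of a group came from separate litters. Alternatives covered the log2 offset, probe sets of low median, scaling, the variance model, array weights, left-out arrays, the probe set of a gene, a replicate block and marker covariates.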

Additional observations from a re-analysis of the deposited data

Results flagged for a closer look

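The values of 22 guidance genes, those called by their main probe set and those of lowest p in the genotype contrasts and the interaction, were looked at in all 88 groups of 4 arrays. In 6 groups 1 array lay far from the other 3, and chance gives about 1 in 20 such groups.

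Ephb1 was at 1.28 on aorta Eln+/- replicate 2, where the nearest array of the group was at 0.22. This array had the highest thymocyte, erythroid, macrophage and endothelial means of all arrays. Epha7 was at 0.36 on valve Eln+/+ replicate 2, where the nearest was at 1.08. That array also had the lowest cardiac muscle mean of the valve arrays, 0.44. Ephb6 was at 0.55 on valve Eln+/- replicate 2, where the other 3 were at -0.19. Efna5 was at 0.52 on aorta Eln+/+ replicate 3, with the nearest array at 0.041. Sema3a was at -0.69 on aorta Eln+/- replicate 4, with the other 3 at -0.83, and Epha10 was at -0.19 on valve Eln+/- replicate 3, with the nearest array at -0.0094.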

How the results depend on the processing

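In the aorta and valve genotype contrasts and the interaction, 0 guidance probe sets were called under every alternative run. Over both genotypes, leaving out each array in turn gave 28 to 48 called guidance probe sets in place of 42, all within 1.5 times the main count. Of all probe sets, 2704 to 4750 were called in place of 3620. The guidance count was 14 with the endothelial mean (1333 of all), 9 with the smooth muscle mean (678 of all) and 0 with the cardiac muscle mean (0 of all), each over the 16 arrays as a covariate. In Eln+/-, leaving out each array in turn gave 14 to 32 in place of 28, and 1366 to 3457 of all probe sets in place of 2615. The guidance count was 17 with only the 8 arrays compared (1602 of all) and 17 without the 2 aorta arrays with thymocyte signal (1578). It was 16 with the endothelial mean (1529), 4 with the smooth muscle mean (305) and 0 with the cardiac muscle mean (0). The mean over the probe sets of a gene called 16 guidance genes in place of 9, and 1703 of all genes in place of 1285. In Eln+/+, leaving out each array in turn gave 2 to 6 in place of 3, the highest without aorta Eln+/+ replicate 4, and 5 without aorta Eln+/- replicate 2. Of all probe sets, 173 to 553 were called in place of 426. The guidance count was 9 with quantile normalization (7 higher and 2 lower, 692 of all), 6 with array weights (545 of all) and 6 with only the 8 arrays compared (389). It was 5 without the 2 aorta arrays with thymocyte signal (575), 8 with the adipocyte mean (439) and 0 with the cardiac muscle mean (0). The mean over the probe sets of a gene called 4 guidance genes in place of 1, and 326 of all genes in place of 240. Some settings use fewer arrays or genes, and with arrays left out the counts moved in both directions. The cause of these changes was not tested.

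With the genotype and number as a replicate block, 29 guidance probe sets were called over both genotypes (2948 of all), 17 in Eln+/- (2062) and 4 in Eln+/+ (297). In the genotype contrasts and the interaction the count was 0. Same-numbered arrays of the genotypes correlated at -0.146 to 0.071. In Eln+/+, the aorta and valve arrays of replicates 2 and 4 differed in sex pattern, so there the block does not stand for mice. With the block, the main probe sets of Ephb4 (adjusted p 0.0746), Plxnc1 (0.0916), Sema3c (0.0760) and Sema3f (0.0738) lost their calls over both genotypes, as did Epha4 (0.0585), Sema3c (0.0628) and Sema5a (0.117) in Eln+/-, and no other call of a single gene changed. Of 1311 refits of single genes, 1143 kept the direction and side of the threshold and 164 lost the call. All 164 were refits of called genes in the tissue contrasts. The genes refitted in the genotype contrasts and the interaction were not called, so they had no call to lose. The other 4 refits reversed, all in the valve genotype contrast. These were Efnb3 (-0.50), Sema7a (-0.34) and Sema5a (0.028) with the cardiac muscle mean over the 8 valve arrays, and Sema5a (0.076) with the smooth muscle mean. With the level of the sex-linked genes (Xist less those of the Y) in the model, over both genotypes Sema3c (adjusted p 0.0540) and Sema3f (adjusted p 0.0530) lost their calls. Without absolute signal levels, dim probe sets could not be left out by brightness.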

Other observations

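Several guidance genes are shown by a main probe set with a median ratio below 1 over the 16 arrays, as were 10 of the 136 guidance probe sets. Such a median may mark a signal at or under a floor, though no label says so. Epha6 was at -1.20 to -0.64 on the aorta arrays and at -1.11 to -0.81 on the valve arrays. Robo2, a Slit receptor best known from neurons, was at -1.24 to -0.36 and at -1.55 to -0.25. The main probe set of Sema3e, the ligand of Plxnd1 and a gene with 3 of 4 probe sets below 1, was at -1.37 to -0.86 on the aorta arrays, and on the valve arrays 1 array, Eln+/+ replicate 3 at 0.33, stood above the other 7, which were at or below -0.48. The main probe set of Epha5, a gene with 2 of 4 probe sets below 1, was at -1.09 to -0.63 on the aorta arrays, and among the valve arrays Eln+/- replicate 2 was at 0.11 where the others were at or below -0.53. None of these genes was called in a contrast.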
